A study of Mus musculus with 9 samples.

Results

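Of 46517 genes measured in duodenal organoids that overexpressed a hypoxia-inducible factor (HIF), 10 genes of sphingosine-1-phosphate (S1P) metabolism, export and sensing were examined, and all were found by symbol. They are the S1P exporter Spns2, the sphingosine kinases Sphk1 and Sphk2, the S1P lyase Sgpl1, the S1P phosphatase Sgpp1, the ceramidases Asah1 and Asah2, and the receptors S1pr1, S1pr2 and S1pr3. The list was drawn up with results of these samples known, and was built around Spns2, so the members' differences that involve Ad-hHIF2, and those of Spns2 in every comparison, are given as description without p-values.

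The organoids were grown from duodenal crypts of wild-type C57BL/6J mice in L-WRN conditioned medium, a source of Wnt3a, R-spondin 3 and noggin that enriches for intestinal stem cells. They were dissociated to single cells and transduced at 50 viral particles per cell with Ad-GFP, the control that carries green fluorescent protein, with Ad-hHIF2, which carries human HIF2, or with Ad-hHIF1, which carries human HIF1. In both human HIFs the prolines that mark them for degradation are replaced by alanine. All 3 groups shared 5% oxygen, a ROCK inhibitor (Y27632), a TGF-β receptor inhibitor (SB431542) and harvest about 72 hours after transduction, so the controls were not kept in room air. Each group holds 3 samples, numbered 1, 3 and 4, which the study calls biological replicates. Expression was transient and came from a viral vector, so the levels of HIF need not match those of hypoxia.

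S1P is a signalling lipid at a branch point of sphingolipid metabolism. Ceramidases release sphingosine from ceramide, sphingosine kinases phosphorylate it to S1P, and S1P is then either dephosphorylated by S1P phosphatases, cleaved irreversibly by S1P lyase or carried out of the cell by Spns2 and other transporters. Outside the cell it binds G protein-coupled receptors, and gradients of it guide lymphocyte traffic and maintain endothelial and epithelial barriers, the gut among them.

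Promoter sequences are shown for the exporter and for the pair of S1P phosphatase genes, whose transcripts differed in opposite directions between Ad-hHIF2 and Ad-GFP organoids. Each line holds the 250 bases before the start that RefSeq gives (GRCm38.p6), 5′ to 3′ on the gene's strand, and the capitals mark the HIF recognition core, ACGTG or GCGTG, read on either strand (CACGT or CACGC on the printed strand where it lies opposite). Adjacent capitals can hold overlapping cores.
Spns2, minus strand, chr11:72475028-72475277: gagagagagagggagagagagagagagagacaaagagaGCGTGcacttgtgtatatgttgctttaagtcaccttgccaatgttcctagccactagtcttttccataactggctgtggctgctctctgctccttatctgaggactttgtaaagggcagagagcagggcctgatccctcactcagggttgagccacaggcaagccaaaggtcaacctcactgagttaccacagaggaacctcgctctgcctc
Sgpp1, minus strand, chr12:75735730-75735979: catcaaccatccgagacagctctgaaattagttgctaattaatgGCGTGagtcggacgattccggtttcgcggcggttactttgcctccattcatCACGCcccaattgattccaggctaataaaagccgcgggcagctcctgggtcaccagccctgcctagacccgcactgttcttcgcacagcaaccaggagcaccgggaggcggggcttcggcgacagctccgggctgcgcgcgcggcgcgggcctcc
Sgpp2, plus strand, chr1:78310096-78310345: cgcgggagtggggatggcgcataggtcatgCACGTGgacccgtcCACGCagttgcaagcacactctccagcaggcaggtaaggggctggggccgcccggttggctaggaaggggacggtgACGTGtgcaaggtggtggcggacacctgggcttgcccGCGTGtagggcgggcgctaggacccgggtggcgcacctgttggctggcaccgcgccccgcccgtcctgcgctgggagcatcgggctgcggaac
The Spns2 window held 1 core, which began 212 bases before the start. That start, base 72475027, is the start of a noncoding Spns2 transcript in GENCODE M21, whereas the long coding transcript starts at base 72489904. The window is therefore not the promoter of the long coding transcript. The Sgpp1 window held 2 cores, beginning 206 and 155 bases before the start. The Sgpp2 window held 5, of which those at 220 and 219 bases overlap on opposite strands. Of the 10 genes, 8 had at least 1 window in the table, and 10 of their 13 windows held a core, against 38.6% of all 32851 windows of the same length. Several of the 13 windows belong to Sphk1 and overlap each other, so some cores are counted more than once and the windows are not independent. A match of 5 letters is a description and not a binding site.

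The 9 libraries held 21722618 to 51119041 expected counts. Expected counts are RSEM's estimates of reads per gene, and levels are given below as CPM, a gene's reads relative to the size of the library as adjusted by the TMM method. Mouse Epas1, which encodes HIF2α, measured 604 to 758 CPM in the Ad-hHIF2 samples and 1.47 to 3.07 CPM in the other 6 (adjusted p = 8.06e-08 against Ad-GFP, edgeR). Mouse Hif1a measured 309 ± 9.96 CPM (SD, n = 3) in Ad-hHIF1 and 220 ± 28.0 in Ad-GFP, a difference that did not pass the test (adjusted p = 0.486, edgeR). For Epas1 and Hif1a alike, a human transgene counts only through reads that matched the mouse gene. Such reads were not told apart from those of the mouse transcript. Of the 9 epithelial markers, 4 (Krt8, Krt18, Krt19 and Cdh1) measured at least 204 CPM in every sample and 5 were low. Of these, Cdx2 measured 6.55 to 8.99 CPM, Vil1 3.27 to 4.94 CPM, Epcam 1.42 to 3.80 CPM and Cldn7 1.31 to 2.32 CPM, and Cdx1 was at 0. Summed marker levels were 3.91 to 7.73 CPM for endothelium (8 genes), 10.2 to 20.8 CPM for fibroblasts and smooth muscle (9 genes) and 2.10 to 6.48 CPM for leukocytes (8 genes). The library of Ad-hHIF1 replicate 3 stood apart. The transcripts Gm10800 and Gm26870 took 15.96% of its counts against at most 4.28% elsewhere. Olfactory, vomeronasal and taste receptor genes, most of which the gut epithelium normally keeps silent, summed to 453 CPM in it against 30.8 to 153 CPM in the other libraries.

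Among the tested members, the exporter showed the widest difference between Ad-hHIF2 and Ad-GFP. Spns2 (ENSMUSG00000040447, chr11:72451638-72489904 of GRCm38, minus strand) encodes a membrane transporter of the major facilitator superfamily that releases S1P from cells. It measured 14.0, 14.5 and 13.6 CPM in Ad-GFP replicates 1, 3 and 4, and 78.9, 71.4 and 74.6 CPM in the Ad-hHIF2 samples. In the Ad-hHIF1 samples it measured 18.8, 16.4 and 18.7 CPM. All Ad-hHIF2 samples lay far above the rest, and the lowest Ad-hHIF1 sample also exceeded the highest Ad-GFP sample. The log2 fold change was 2.42 (SE 0.07) for Ad-hHIF2 over Ad-GFP, 0.36 (SE 0.09) for Ad-hHIF1 over Ad-GFP and 2.06 (SE 0.08) for Ad-hHIF2 over Ad-hHIF1. Each single sample left out gave 2.40 to 2.45 for the first of these. In bulk RNA, fewer cells of a type and less RNA per cell cannot be told apart, nor can more cells with the transcript and more transcript per cell. Spns2 shares 131 exonic bases, 3.21% of its own, with Mybbp1a on the opposite strand, and the strandedness of the libraries is not given in the sources used here.

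**Figure D1:**
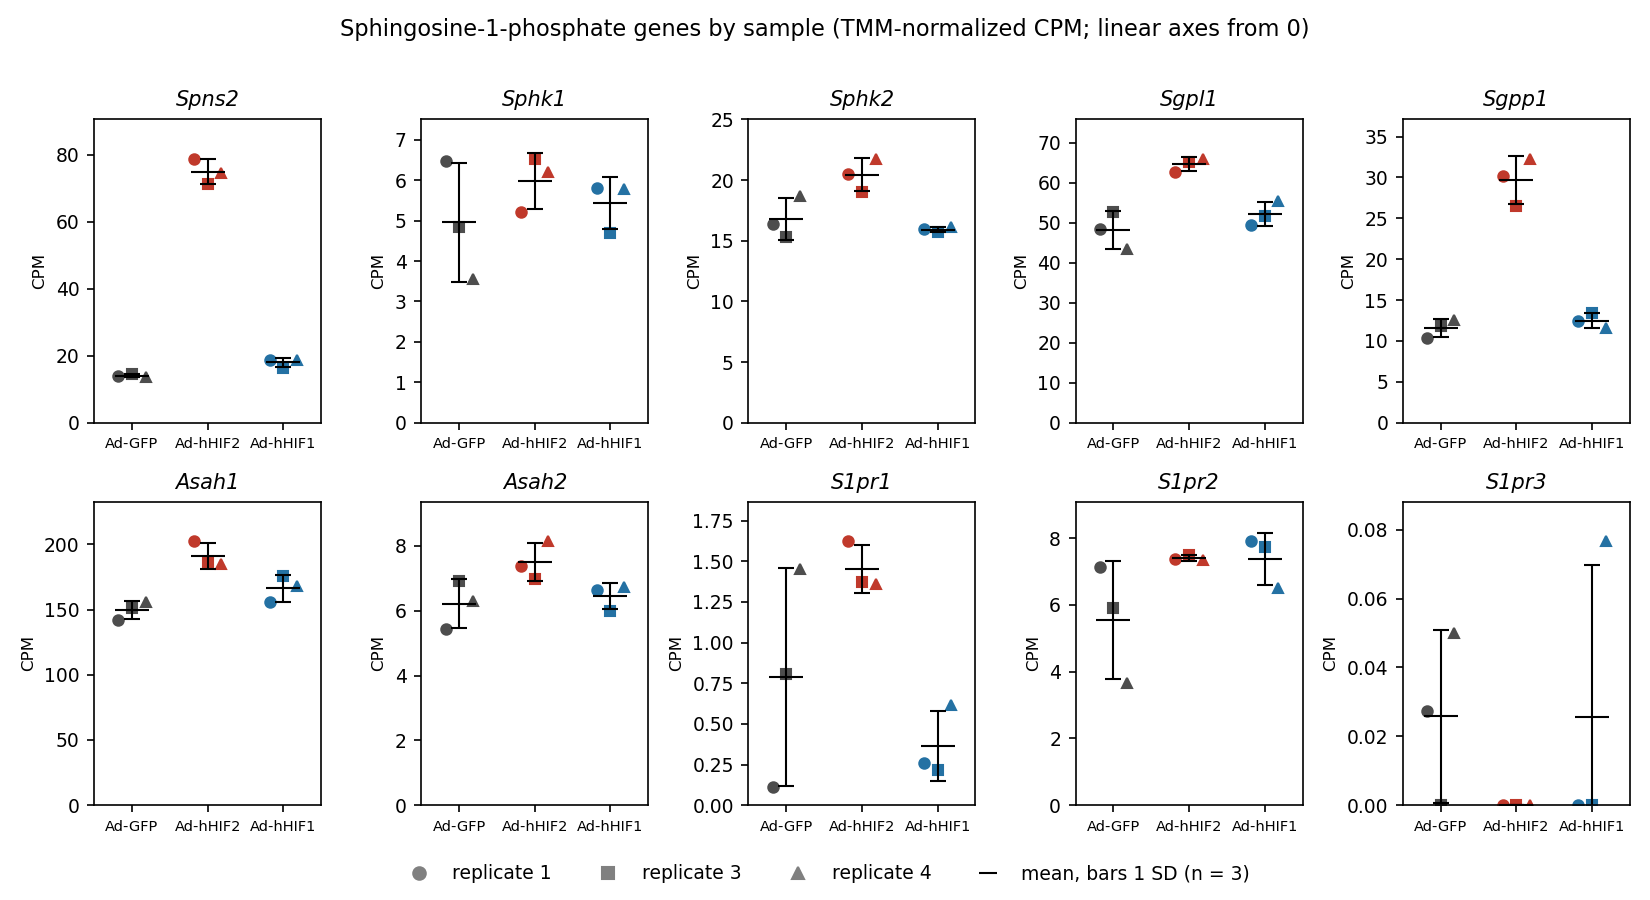
TMM-normalized CPM (linear axes from 0) of the 10 genes in each sample, by group, with the replicate number as the marker shape and the mean with 1 SD (n = 3) in black. Spns2 and Sgpp1 show 3 Ad-hHIF2 samples far above the others, while the groups overlap for Sphk1 and S1pr3.

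Of the kinases, which make S1P, Sphk1 overlapped between all groups and Sphk2 was slightly higher in Ad-hHIF2. Sphk1 (ENSMUSG00000061878, chr11:116530925-116536674), the mainly cytosolic and growth factor-responsive kinase, measured 6.48, 4.85 and 3.55 CPM in Ad-GFP, 5.21, 6.53 and 6.21 CPM in Ad-hHIF2 and 5.82, 4.69 and 5.78 CPM in Ad-hHIF1. No group stood apart from another. The log2 fold change of Sphk1 was 0.26 (SE 0.21) for Ad-hHIF2 over Ad-GFP and 0.12 (SE 0.24, adjusted p = 0.889, edgeR) for Ad-hHIF1 over Ad-GFP. Between both HIFs it was 0.14 (SE 0.21). Without Ad-GFP replicate 4 the first of these became 0.09 and the second -0.06, and without Ad-GFP replicate 1 they became 0.51 and 0.37. Sphk2 (ENSMUSG00000057342, chr7:45709467-45718002), the kinase found also in the nucleus and mitochondria, measured 16.3, 15.3 and 18.7 CPM in Ad-GFP and 20.5, 19.1 and 21.8 CPM in Ad-hHIF2. It measured 15.9, 15.7 and 16.1 CPM in Ad-hHIF1. The Ad-hHIF2 samples were above all others, by a log2 fold change of 0.29 (SE 0.10) over Ad-GFP and 0.36 (SE 0.09) over Ad-hHIF1, while Ad-hHIF1 differed from Ad-GFP by -0.07 (SE 0.10, adjusted p = 0.844, edgeR). The expected counts of both kinases were not whole in any of the 9 samples, as RSEM gives where reads match several genes, and Sphk2 shares 13.0% of its exonic bases with Dbp and 8.97% with Rpl18 on the opposite strand.

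Among the enzymes that remove S1P, the phosphatase Sgpp1 stood apart from the lyase Sgpl1. Sgpp1 (ENSMUSG00000021054, chr12:75714249-75735729) encodes an enzyme of the endoplasmic reticulum that returns S1P to sphingosine. It measured 10.4, 11.9 and 12.5 CPM in Ad-GFP and 30.2, 26.5 and 32.3 CPM in Ad-hHIF2. The Ad-hHIF1 samples, at 12.4, 13.4 and 11.6 CPM, overlapped with Ad-GFP, and all 3 Ad-hHIF2 samples were above both. The log2 fold change was 1.36 (SE 0.11) for Ad-hHIF2 over Ad-GFP and 1.25 (SE 0.10) for Ad-hHIF2 over Ad-hHIF1. On log2(TPM + 1) these were 0.83 and 0.74, both under 2-fold, and on log2(TPM + 0.1) the first was 1.6. For Ad-hHIF1 over Ad-GFP the log2 fold change was 0.11 (SE 0.12, adjusted p = 0.803, edgeR). Sgpl1 (ENSMUSG00000020097, chr10:61098642-61147703), whose product cleaves S1P for good, measured 48.4, 52.8 and 43.4 CPM in Ad-GFP, 62.8, 65.3 and 66.1 CPM in Ad-hHIF2 and 49.5, 51.8 and 55.5 CPM in Ad-hHIF1. Ad-hHIF2 did not overlap with the other groups, with a log2 fold change of 0.43 (SE 0.08) over Ad-GFP and 0.31 (SE 0.08) over Ad-hHIF1. Ad-hHIF1 and Ad-GFP overlapped, with 0.12 (SE 0.09, adjusted p = 0.726, edgeR).

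The ceramidases supply sphingosine. Asah1 (ENSMUSG00000031591, chr8:41340197-41374773), the lysosomal acid ceramidase, measured 142, 151 and 156 CPM in Ad-GFP, 202, 186 and 185 CPM in Ad-hHIF2 and 156, 176 and 168 CPM in Ad-hHIF1. Every Ad-hHIF2 sample was above the other 6, with a log2 fold change of 0.35 (SE 0.08) over Ad-GFP and 0.20 (SE 0.08) over Ad-hHIF1. The value for Ad-hHIF1 over Ad-GFP was 0.15 (SE 0.08, adjusted p = 0.633, edgeR), the smallest adjusted p of the 8 members tested there with Spns2 left out. Asah2 (ENSMUSG00000024887, chr19:31982597-32108211), the neutral ceramidase known from the intestinal brush border, measured 5.44 to 6.93 CPM in Ad-GFP, 6.98 to 8.15 CPM in Ad-hHIF2 and 6.00 to 6.73 CPM in Ad-hHIF1. Its log2 fold change was 0.27 (SE 0.13) for Ad-hHIF2 over Ad-GFP, and the highest Ad-GFP sample lay just below the lowest Ad-hHIF2 sample. Ad-hHIF1 overlapped with Ad-GFP (adjusted p = 0.926, edgeR).

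The receptors ranged from a few CPM to no counts at all. S1pr2 (ENSMUSG00000043895, chr9:20962361-20976781), which couples to several G proteins, measured 7.13, 5.90 and 3.65 CPM in Ad-GFP, 7.39, 7.49 and 7.34 CPM in Ad-hHIF2 and 7.91, 7.75 and 6.50 CPM in Ad-hHIF1. Ad-GFP replicate 4 was the lowest sample, and S1pr2 differed from Ad-GFP by a log2 fold change of 0.40 for both HIFs (SE 0.21 for Ad-hHIF2 and 0.24 for Ad-hHIF1, adjusted p = 0.66 for the latter, edgeR). With single samples left out these ran from 0.20 to 0.62 for Ad-hHIF2 and from 0.18 to 0.62 for Ad-hHIF1, the lowest without Ad-GFP replicate 4 and the highest without Ad-GFP replicate 1. Between both HIFs the log2 fold change of S1pr2 was 0.01 (SE 0.20). S1pr1 (ENSMUSG00000045092, chr3:115710433-115715072), the receptor that lymphocytes and endothelium use, had 4, 29 and 29 counts in Ad-GFP, 71, 70 and 42 in Ad-hHIF2 and 9, 5 and 24 in Ad-hHIF1. These correspond to 0.11, 0.80 and 1.45 CPM, 1.62, 1.37 and 1.36 CPM, and 0.26, 0.22 and 0.61 CPM. Ad-hHIF2 and Ad-GFP overlapped through Ad-GFP replicate 4, whereas every Ad-hHIF2 sample was above every Ad-hHIF1 sample. The log2 fold change of S1pr1 for Ad-hHIF2 was 0.96 (SE 0.66) over Ad-GFP and 1.95 (SE 0.73) over Ad-hHIF1. For Ad-hHIF1 over Ad-GFP it was -1.04 (SE 0.88, adjusted p = 0.751, edgeR). With single samples left out, the first of these ran from 0.40 (without Ad-GFP replicate 1) to 1.68 (without Ad-GFP replicate 4) and the second from 1.69 (without Ad-hHIF1 replicate 3) to 2.57 (without Ad-hHIF1 replicate 4). The last ran from -1.66 (without Ad-hHIF1 replicate 4) to -0.29 (without Ad-GFP replicate 4). The olfactory, vomeronasal and taste receptor genes summed, for the same samples in the same order, to 84.5, 132 and 148 CPM in Ad-GFP, 30.8, 48.6 and 67.3 CPM in Ad-hHIF2 and 153, 453 and 59.7 CPM in Ad-hHIF1. Per kb of effective length, these 1649 genes were at 0.053 CPM in Ad-GFP replicate 1, where S1pr1 was at 0.038. In Ad-hHIF1 replicates 1 and 3 they were at 0.096 and 0.291, and S1pr1 was lower, at 0.090 and 0.076. In the remaining samples S1pr1 lay above them. Their part in the S1pr1 values was not tested. S1pr3 (ENSMUSG00000067586, chr13:51408639-51422797) had at most 3 counts in any sample, failed the filter on low counts and is given no fold change.

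Of the 10 members, 9 passed the filter on low counts. Between Ad-hHIF2 and Ad-GFP, 2 of these 9, Spns2 and Sgpp1, met the call of an adjusted p below 0.05 (edgeR) and at least 2-fold, both higher in Ad-hHIF2, though Sgpp1 was under 2-fold on log2(TPM + 1). The call was met by 6.73% of the 14987 genes tested, and by 2.90% in the higher direction, and nothing is read from the members' count because they were chosen with this contrast known. All 9 had a positive log2 fold change, with a median of 0.40 beside -0.01 over every gene tested. In 7 of the 9, all but Sphk1 and S1pr1, the Ad-hHIF2 samples all exceeded the controls, which held for 23.4% of tested genes. For Ad-hHIF1 over Ad-GFP, 0 of the 9 met the call, as did 0 of 15233 genes over the whole table (0.00%), where 1308 genes (8.59%) had an unadjusted p below 0.05 in edgeR and DESeq2 called 1. The members' median there was 0.12 beside 0.00 over the table, and in 1 of 9, Spns2, all Ad-hHIF1 samples exceeded the controls, beside 8.38% of tested genes. For Ad-hHIF2 over Ad-hHIF1, 2 of 9 met the call, again Spns2 and Sgpp1 and both higher, beside 6.11% of 15556 genes and 2.42% in that direction. There, 7 of 9, all but Sphk1 and S1pr2, had groups apart with Ad-hHIF2 higher, beside 22.7% of tested genes, and the median log2 fold change was 0.31. Both comparisons with Ad-GFP use the same 3 control samples.

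**Figure D2:**
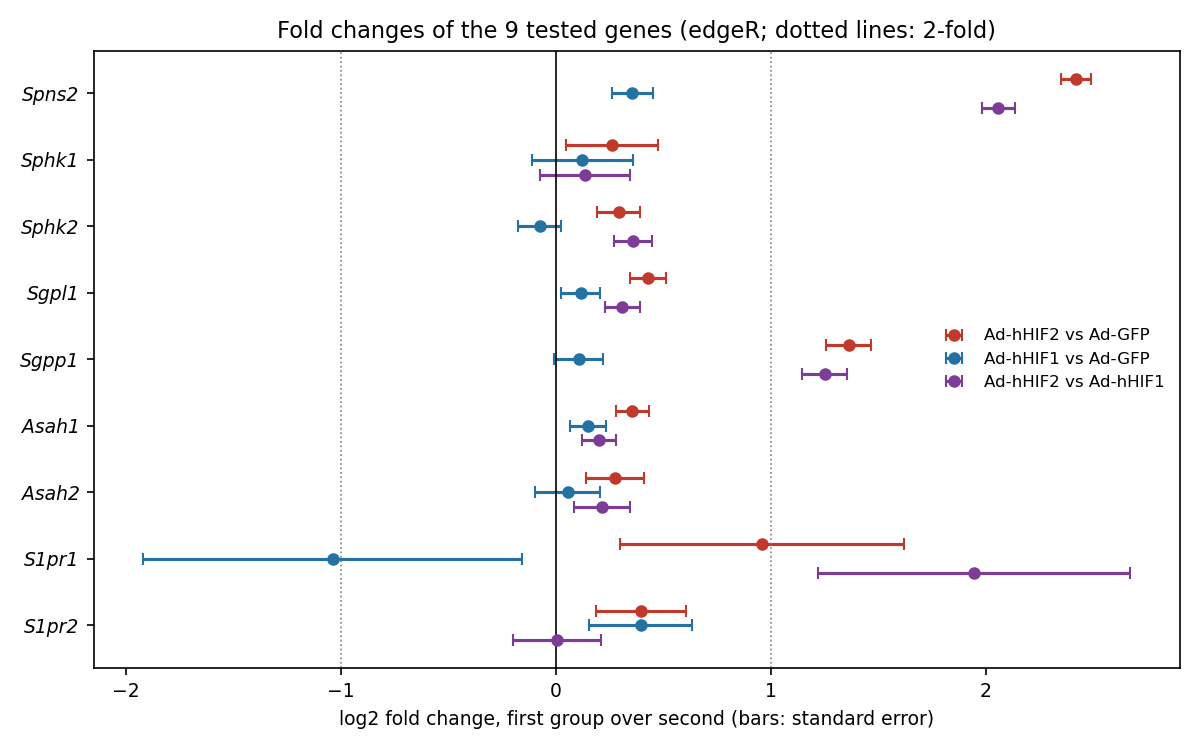
Log2 fold change with its standard error (horizontal axis) of the 9 tested genes in the 3 comparisons, with dotted lines at 2-fold. Spns2 and Sgpp1 lie beyond 2-fold for Ad-hHIF2 against both other groups, S1pr1 has the widest errors, and the Ad-hHIF1 values lie within 2-fold of Ad-GFP except that of S1pr1 at -1.04 (SE 0.88).

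Levels of different genes were compared per length, as CPM per kb of effective transcript length. Asah1 was the highest member in each group, at 57.8 ± 2.61 (SD, n = 3) CPM per kb in Ad-GFP, 74.0 ± 3.63 in Ad-hHIF2 and 65.1 ± 5.55 in Ad-hHIF1. In Ad-GFP it was followed by Sgpl1 at 14.2, Sphk2 at 5.68, Spns2 at 5.06 and Sgpp1 at 3.64 CPM per kb. Sgpp1, Sphk1, S1pr2 and Asah2 then formed a run in which each gene overlapped with the next, and S1pr1 and S1pr3 came last. In Ad-hHIF2, Spns2 came next after Asah1 at 25.8 ± 0.883 CPM per kb, above Sgpl1 at 17.2 ± 0.434, and Sgpp1 followed Sgpl1 at 9.31 ± 0.923, above Sphk2 at 6.81 ± 0.660. No neighbours in that order overlapped. In Ad-hHIF1, Spns2 at 6.38 ± 0.205 CPM per kb lay above Sphk2 at 5.20 ± 0.0658 and below Sgpl1 at 14.8 ± 1.29, and only Sgpp1, Sphk1 and S1pr2 overlapped with their neighbours. Effective length follows the isoforms that RSEM assigned and varied most for Sphk1, so its rank is the least certain.

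**Figure D3:**
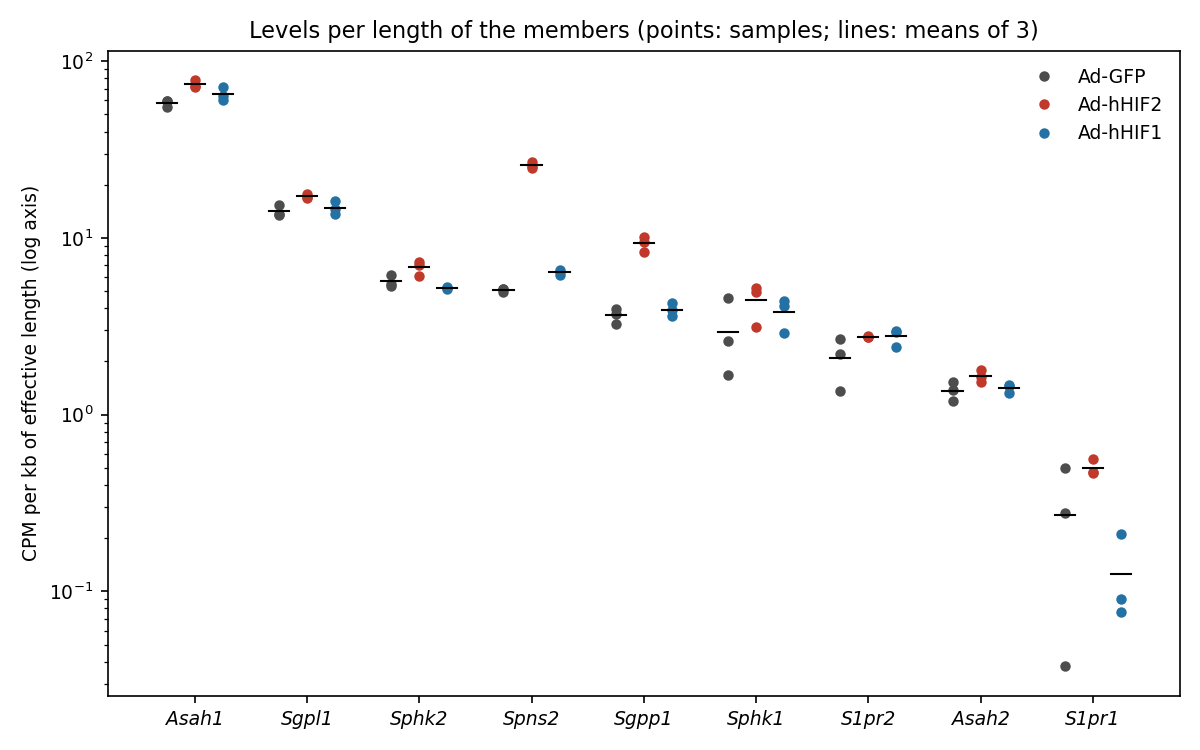
CPM per kb of effective length (log axis) of 9 genes in each sample (points) with the mean of 3 samples (lines), by group. S1pr3 is left out because of its zeros. Spns2 lies near 5 CPM per kb in Ad-GFP and near 26 in Ad-hHIF2, where it passes Sgpl1.

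Over all 9 samples, the 5 genes whose log2 CPM followed that of Spns2 most closely included Zc3h12c, Ccnd2, Gcnt1 and Kbtbd11, with Pearson's r of 0.9978 to 0.9982 among 15555 genes. Ccnd2, which encodes cyclin D2, measured 130 ± 5.99 CPM (SD, n = 3) in Ad-GFP, 450 ± 31.0 CPM in Ad-hHIF2 and 150 ± 6.07 CPM in Ad-hHIF1. Gcnt1, which encodes an enzyme that branches O-linked glycans, measured 54.8 ± 2.60, 186 ± 7.41 and 63.9 ± 1.46 CPM in the same order. Among the members, Sgpp1 was most like Spns2 (r = 0.979), followed by Sgpl1 (0.911), Asah1 (0.867), Sphk2 (0.833) and Asah2 (0.758), with S1pr1 (0.629), Sphk1 (0.441) and S1pr2 (0.419) last. These correlations are descriptions over 9 samples that fall into 3 treatment groups, and none was computed within a group.

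The neighbouring steps of the pathway were read from 49 further genes in 3 lists grouped by function. The lists were also drawn up with results of these samples known, so their counts and shares are a description. Between Ad-hHIF2 and Ad-GFP, 40 of them were tested and 17 passed at an adjusted p below 0.05 (edgeR), 12 of them higher and 5 lower in Ad-hHIF2. This share, 42.5%, stands beside 29.5% of all genes tested (15.9% higher and 13.6% lower). On the deposited length-scaled values, log2(TPM + 1) in limma, 6 of the 40 passed, beside 6.74% over the whole table. The 2-fold call in edgeR was met by 4 of the 40, Cerk, Galc, Spns3 and Degs2, beside 6.73% over the table. Spns3 met it with the limits given below. Between Ad-hHIF1 and Ad-GFP, 0 of 41 passed, with a smallest adjusted p of 0.49 (edgeR), beside 0 of 15233 genes over the whole table (0.00%). Between Ad-hHIF2 and Ad-hHIF1, 19 of 41 passed, 11 higher and 8 lower, beside 25.8% of all genes (13.7% higher and 12.0% lower). On log2(TPM + 1) in limma, 1 of the 41 passed there, beside 3.72% of all genes. In edgeR, 4 of the 41 met the call, Cerk, Galc, Sgpp2 and Acer1, beside 6.11%. Some of these calls turned on 1 library, with the gene still past the test but under 2-fold. The log2 fold change of Degs2 against Ad-GFP became -0.91 without Ad-GFP replicate 1 and -0.985 without Ad-hHIF2 replicate 1. Against Ad-hHIF1, that of Galc became 0.99 without Ad-hHIF1 replicate 1 and that of Sgpp2 -0.89 without Ad-hHIF2 replicate 4. Genes named below that passed at under 2-fold were picked after their values were seen.

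Among the other genes of S1P turnover, transport and sensing, 1 of 11 tested rose and 2 fell in Ad-hHIF2 against Ad-GFP, a share of 27.3% beside 29.5% of all genes tested. The gene that rose was Spns3, whose limits are given below. Sgpp2, the second S1P phosphatase, fell where Sgpp1 was higher. It measured 4.97, 5.49 and 5.90 CPM in Ad-GFP, 2.84, 3.06 and 2.23 CPM in Ad-hHIF2 and 5.67, 5.69 and 5.17 CPM in Ad-hHIF1. The Ad-hHIF2 samples were below all others, with a log2 fold change of -0.99 (SE 0.18, adjusted p = 0.0042, edgeR) against Ad-GFP and -1.02 (SE 0.17, adjusted p = 0.0015) against Ad-hHIF1. On the TPM scales of limma neither Sgpp2 nor Degs2, described below, passed the test against Ad-GFP. The value of Sgpp2 there was -0.06 on log2(TPM + 1) and -0.30 on log2(TPM + 0.1), and that of Degs2 was -0.11 and -0.35. Per length, Sgpp2 averaged 1.41 CPM per kb in Ad-GFP and 0.701 in Ad-hHIF2, and Degs2 3.16 and 1.64. Where levels are this low, an added 1 shrinks a log2 fold change, so that scale cannot gauge the size of these differences. Against Ad-hHIF1, Sgpp2 also failed the test, at -0.096 on log2(TPM + 1) (adjusted p = 0.414, limma). On log2(TPM + 0.1) it was at -0.45 (adjusted p = 0.453, limma). Nor was Sgpp2 called against Ad-hHIF1 with total counts only or without a count filter. Per length, Sgpp1 made up 72.1% ± 0.321 of the summed level of both phosphatases in Ad-GFP, 92.9% ± 1.66 in Ad-hHIF2 and 73.3% ± 0.768 in Ad-hHIF1 (SD, n = 3). Abcc1, an ABC transporter that can also carry S1P out of cells, measured 138, 127 and 133 CPM in Ad-GFP, 88.3, 84.3 and 82.4 CPM in Ad-hHIF2 and 120, 115 and 118 CPM in Ad-hHIF1. It fell by 0.64 on the log2 scale (SE 0.07, adjusted p = 0.000356, edgeR) in Ad-hHIF2 against Ad-GFP. Per length, Spns2 was 13.1% ± 2.10 of the summed level of Spns2 and Abcc1 in Ad-GFP, 59.7% ± 1.25 in Ad-hHIF2 and 20.8% ± 2.21 in Ad-hHIF1.

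Spns3, a relative of Spns2, had 36, 15 and 2 counts in Ad-GFP and 68, 84 and 76 in Ad-hHIF2, and its log2 fold change was 1.82 (SE 0.57, adjusted p = 0.0431, edgeR). With single samples left out the value ran from 1.43 (without Ad-GFP replicate 4) to 2.72 (without Ad-GFP replicate 1), and on log2(TPM + 1) it was 0.10, so its size is uncertain at such counts. The call was lost on both TPM scales (under 2-fold), in a fit of all 9 samples, without Ad-GFP replicate 3 and without any single Ad-hHIF2 sample, and adjusted p-values over all alternatives ran from 7.94e-05 to 0.131. Spns3 also passed the filter on low counts only with Ad-hHIF2 samples, where it was high, so its call is no support for a difference. Acer1, an alkaline ceramidase, had 3, 1 and 2 counts in Ad-hHIF2 and 23, 11 and 13 in Ad-hHIF1 (adjusted p = 0.0128, edgeR), and it passed the filter on low counts only through samples other than Ad-hHIF2, so its call is no support for a difference. The call was also lost on both TPM scales and without Ad-hHIF2 replicate 1 or 3 or Ad-hHIF1 replicate 1, and no size is given at such counts. The receptors S1pr4 and S1pr5 and the S1P carrier Apom were too low to test in any comparison. The erythrocyte S1P exporter Mfsd2b averaged 0.596 CPM in Ad-GFP and 0.763 CPM in Ad-hHIF2 and did not pass the test.

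**Figure D4:**
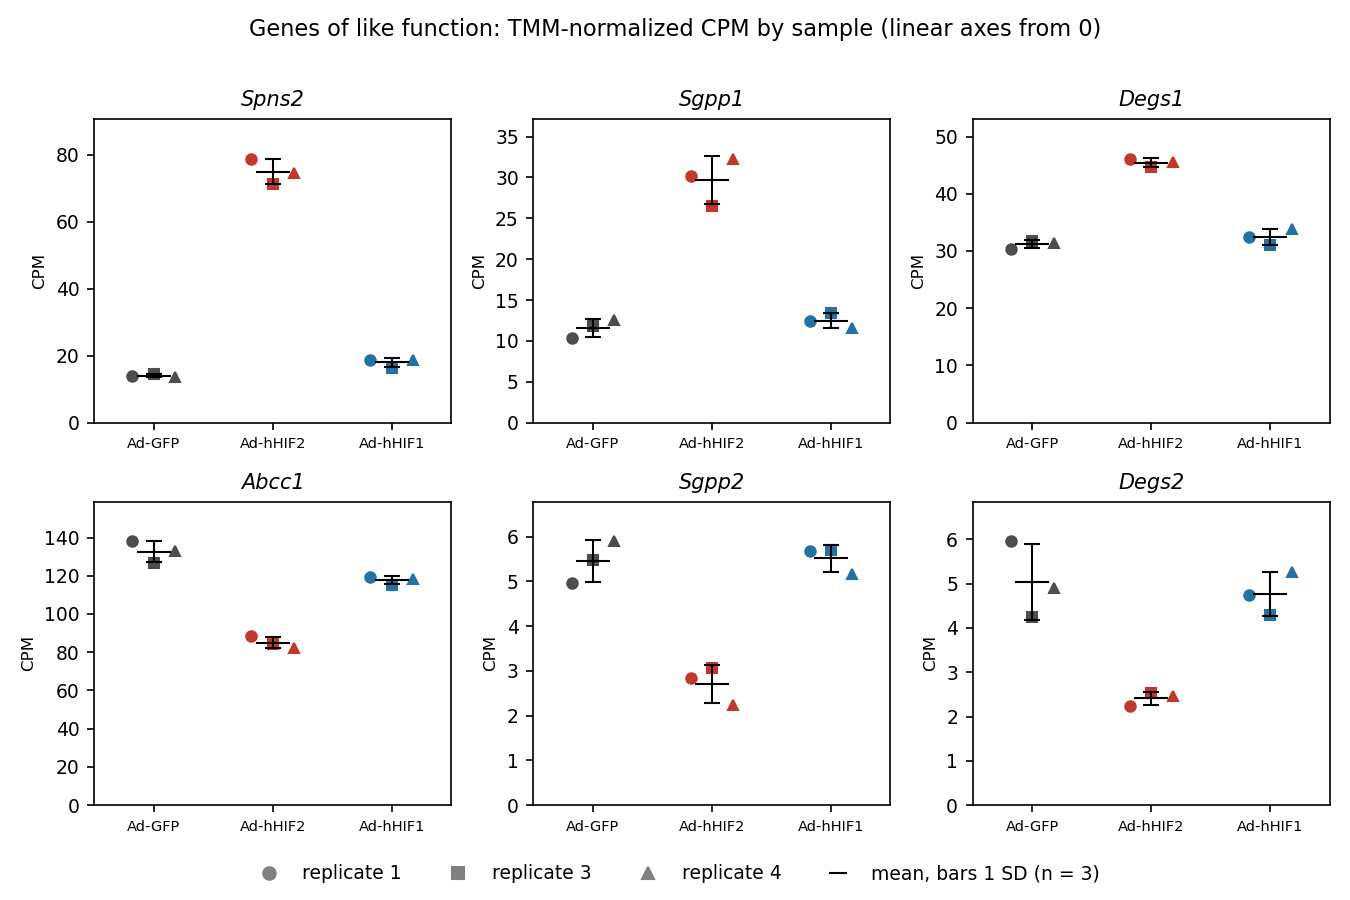
TMM-normalized CPM (linear axes from 0) in each sample of 3 pairs of genes with like functions, by group, with the mean and 1 SD (n = 3) in black. In each pair the upper gene (Spns2, Sgpp1, Degs1) lies highest and the lower gene (Abcc1, Sgpp2, Degs2) lowest in the 3 Ad-hHIF2 samples.

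In ceramide synthesis, 14 of 17 genes were tested and 3 rose while 2 fell in Ad-hHIF2 against Ad-GFP, a share of 35.7% beside the same 29.5%. The desaturases that complete ceramide moved in opposite directions. Degs1, which makes the common ceramide, measured 30.4, 31.7 and 31.4 CPM in Ad-GFP, 46.1, 44.6 and 45.6 CPM in Ad-hHIF2 and 32.4, 31.1 and 33.8 CPM in Ad-hHIF1, and it rose by 0.55 on the log2 scale (SE 0.06, adjusted p = 0.00035, edgeR). Degs1 did not pass on log2(TPM + 1) (adjusted p = 0.0612, limma) or log2(TPM + 0.1) (adjusted p = 0.0619, limma). Degs2, which also makes phytoceramide, the hydroxylated form found in gut and skin, measured 5.96, 4.24 and 4.90 CPM in Ad-GFP and 2.24, 2.53 and 2.46 CPM in Ad-hHIF2. Its log2 fold change was -1.06 (SE 0.19, adjusted p = 0.00418, edgeR). Ormdl3, a brake on serine palmitoyltransferase, rose by 0.68 (SE 0.12, adjusted p = 0.00356, edgeR), and Sptlc1, a subunit of that enzyme, rose by 0.31 (SE 0.09, adjusted p = 0.0354). The ceramide synthase gene Cers5 was lower by edgeR (log2 fold change -0.38, SE 0.09, adjusted p = 0.014) but slightly higher in limma on the TPM scales (0.06 on log2(TPM + 1)). There the tool and the values changed together, and with total counts only in edgeR it stayed lower (-0.12). Cers5 also no longer passed without Ad-GFP replicate 1 or Ad-hHIF2 replicate 1 or 4. Sptlc1 no longer passed in DESeq2, on the TPM scales and when any Ad-hHIF2 sample, or Ad-GFP replicate 1 or 3, was left out.

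In sphingomyelin and glycolipid turnover, 8 of 15 tested genes rose and 1 fell in Ad-hHIF2 against Ad-GFP, a share of 60.0% beside 29.5% of all genes. The list's median log2 fold change was 0.35 beside -0.01 over all genes tested. Cerk, which phosphorylates ceramide to ceramide-1-phosphate, measured 5.16, 5.46 and 5.40 CPM in Ad-GFP, 13.2, 12.8 and 16.2 CPM in Ad-hHIF2 and 5.91, 4.77 and 4.48 CPM in Ad-hHIF1. It rose by 1.40 on the log2 scale (SE 0.12, adjusted p = 9.26e-05, edgeR). Galc, the lysosomal galactosylceramidase, rose by 1.25 (SE 0.13, adjusted p = 0.000207, edgeR), from 15.7 ± 2.99 CPM in Ad-GFP to 37.5 ± 2.27 CPM in Ad-hHIF2. Smpd1, the acid sphingomyelinase, rose by 0.81 (SE 0.08, adjusted p = 0.000237, edgeR) and Psap, the precursor of the saposin activator proteins, by 0.68 (SE 0.08, adjusted p = 0.000351). Glb1, the β-galactosidase, had a log2 fold change of 0.15 and did not pass (adjusted p = 0.193, edgeR). Gla, the α-galactosidase, rose by 0.35, but did not pass on the TPM scales or when any Ad-hHIF2 sample, or Ad-GFP replicate 1 or 3, was left out. Outside the lysosome, Smpd3, a neutral sphingomyelinase, rose by 0.84 and Ugcg, which adds glucose to ceramide, by 0.75. Smpd1 and Smpd3 did not pass on log2(TPM + 1) (adjusted p = 0.0749 and 0.075, limma). The sphingomyelin synthase Sgms1 fell by 0.52 (SE 0.07, adjusted p = 0.00139, edgeR), while Sgms2 did not pass the test. With libraries scaled by total counts only, which moved the median log2 fold change of all genes to 0.24, Abcc1 (adjusted p = 0.131), Sgms1 (adjusted p = 0.31) and Cers5 (adjusted p = 0.668) no longer passed in edgeR. Abcc1 and Sgms1 also failed the test on both TPM scales.

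**Figure D5:**
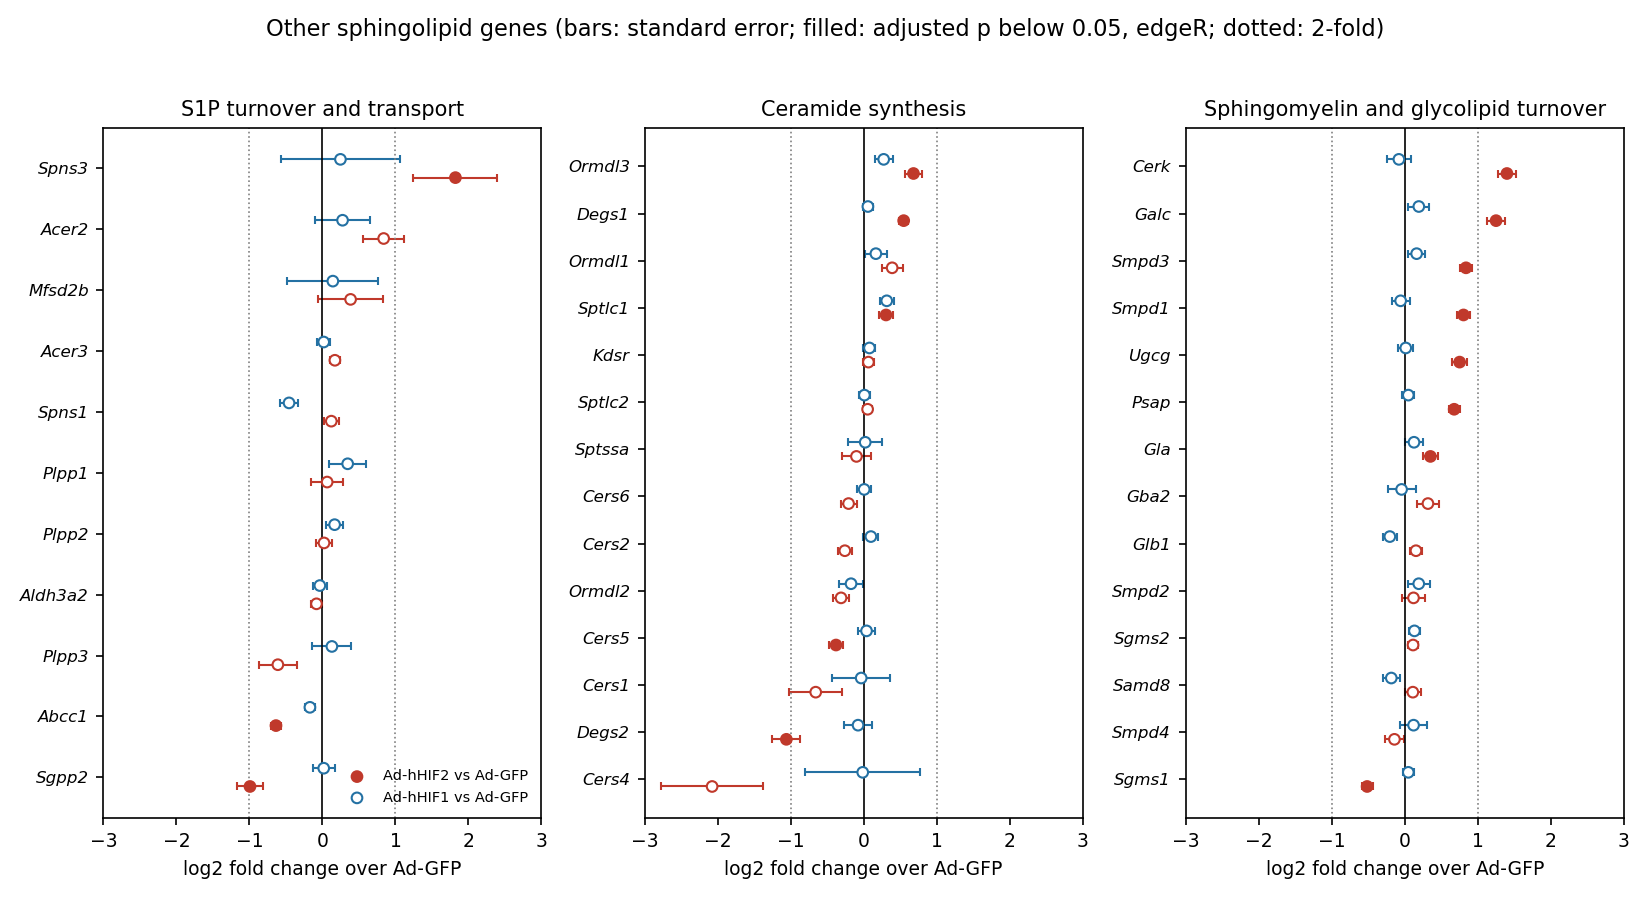
Log2 fold change over Ad-GFP with its standard error (horizontal axis) of the tested genes of the 3 lists (1 of them not drawn), in red for Ad-hHIF2 and blue for Ad-hHIF1. Points are filled where the adjusted p was below 0.05 (edgeR), which held for 16 of the drawn genes in Ad-hHIF2 and 0 in Ad-hHIF1. The direction of Cers5 for Ad-hHIF2 reversed in limma on the TPM scales, and Acer1 is not shown because it was not tested against Ad-GFP for Ad-hHIF2.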

How the data were processed

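RNA of 9 duodenal organoid samples was sequenced as bulk RNA, and groups and replicate numbers were taken from the sample labels. Per the study's methods, the authors discarded reads of low quality and estimated transcript abundance with RSEM (named also in the submitters' processing notes). The RSEM version, aligner, genome build, annotation and strandedness are not given in the sources used here. The deposited tables hold expected counts, which the authors did not normalize, and TPM, which RSEM scaled by effective length and depth. TPM served only in alternatives, because short noncoding RNAs weigh heavily in them (the 7SL genes Rn7s1 and Rn7s2 took 12.5% to 21.8% of counts). Of the expected counts, 85.7% were whole (tolerance 1e-06).

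Expected counts were rounded, filtered with filterByExpr and normalized by TMM. The quasi-likelihood test of edgeR 4.0.16 was used in R 4.3.3, with limma 3.58.1 for alternatives and Benjamini-Hochberg adjustment over all genes tested. The fits against Ad-GFP held the 6 samples of the groups concerned, and that of Ad-hHIF2 against Ad-hHIF1 held all 9. A gene passed at an adjusted p below 0.05 and was called when it also differed by at least 2-fold. CPM use TMM factors over all 9 samples, and standard errors were derived from the F statistic. The method was tested on simulated data. At 21722618 counts, the smallest library, genes near 1 CPM rest on few reads, which limits S1pr1, Spns3 and Acer1. P-values set a difference between groups against the spread between these samples, whose origin in separate mice the labels do not give. No pair of samples in a group agreed within sampling noise.

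The genes named are the 10 members, genes of 3 wider lists that met the call in any comparison, the 5 genes most correlated with Spns2 (log2 CPM, prior count 2), and Epas1 and Hif1a as a check of the labels. Genes that passed at under 2-fold, markers, genes too low to test and others described beside these are exceptions. Members and lists were chosen with earlier results of these data known. Positions and shared exons come from GENCODE M21 (GRCm38) by Ensembl identifier, and 3 listed genes (Plpp1, Plpp2 and Plpp3) were matched by identifier; promoters come from RefSeq (GRCm38.p6). Alternatives changed the filter (none, or a minimum of 10 counts in each sample), the scaling (median-ratio factors, or only totals) or the tool (DESeq2 1.42.0, or limma on log2(TPM + 1) and log2(TPM + 0.1)), refitted with another set of samples or with the replicate number as a block, and left out each sample in turn. Python 3.11.15 with matplotlib 3.10.9 drew the figures. The Asah1 and S1pr1 promoters and protein sequences were not used here, and 1 gene of the wider lists and 1 of the 5 correlated genes are counted but not reported here.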

Additional observations from a re-analysis of the deposited data

How the results depend on the processing

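In Ad-hHIF2 against Ad-GFP, the 9 tested members kept a positive log2 fold change under every alternative run for them; S1pr1 was not fitted at a minimum of 10 counts in each sample. That of Spns2 was 2.42 and became 2.68 with total counts only, 1.73 on log2(TPM + 1) and 2.63 on log2(TPM + 0.1). Under the same 3 settings it went from 0.36 to 0.44, 0.22 and 0.46 for Ad-hHIF1 over Ad-GFP, and from 2.06 to 2.24, 1.51 and 2.17 for Ad-hHIF2 over Ad-hHIF1. The number of genes called was 1009 (435 higher, 574 lower) in Ad-hHIF2 against Ad-GFP, 237 on log2(TPM + 1), and 800 higher and 440 lower with total counts only, which moved the median of all genes to 0.24. On log2(TPM + 0.1) the split was 644 higher and 126 lower, with a median of 0.30. In Ad-hHIF1 against Ad-GFP it was 0, but 138 without a count filter, 2 in a fit of all 9 samples and 1 in DESeq2. Between both HIFs it was 951 (376 higher, 575 lower), 222 on log2(TPM + 1), 538 higher and 482 lower with total counts only, and 585 to 1160 with a sample left out, falling to 585 without Ad-hHIF2 replicate 1 and 629 without Ad-hHIF2 replicate 3. Of the wider lists, 4 genes were called in Ad-hHIF2 against Ad-GFP, 8 with total counts only (Degs2 not among them), 1 on log2(TPM + 1) and 7 on log2(TPM + 0.1). The 1 was Psap, since Cerk at 0.46 and Galc at 0.85 were under 2-fold there, and of the 4, only Cerk and Galc were among the 7. Over all genes tested, 6.73% were called, 1240 of 14987 with total counts only, 1.58% on log2(TPM + 1) and 5.14% on log2(TPM + 0.1). On the TPM scales 6 and 8 genes of the lists passed in place of 17, beside 6.74% and 7.4% of all genes. Between both HIFs 4 were called, 7 in DESeq2, 0 on log2(TPM + 1) and 2 on log2(TPM + 0.1), and 1 and 3 passed on the TPM scales in place of 19 (2.44% and 7.32%, beside 3.72% and 5.97% of all genes). Over all genes tested there, 6.11% were called, 1063 of 14902 in DESeq2, 1.49% on log2(TPM + 1) and 4.49% on log2(TPM + 0.1). Cers5 changed direction on both TPM scales, from -0.38 to 0.063 and 0.086. The cause of these shifts was not tested. With the replicate number as a block, 1036, 0 and 820 genes were called, and Spns2 was at 2.42, 0.35 and 2.06. Plpp3, at an adjusted p of 0.0498 (edgeR) between both HIFs, no longer passed under the block, nor in 9 of the other 14 alternatives, every one that left out a sample included. Deviations of same-numbered samples correlated by -0.194 to 0.134, so the numbers were not taken to pair the samples.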

Other observations

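The mean transcript length that RSEM assigned, which reflects the mix of isoforms, was fixed for Sgpp1, Asah2 and the 3 receptors but not for the others. For Sphk1 it was 1560, 2007 and 2256 bases in Ad-GFP, 1807, 1389 and 1394 bases in Ad-hHIF2 and 1552, 1781 and 1452 bases in Ad-hHIF1, so the groups overlapped. For Sgpl1 it was 3699, 3576 and 3346 bases in Ad-GFP, 3858, 3834 and 4025 bases in Ad-hHIF2 and 3550, 3974 and 3573 bases in Ad-hHIF1. All Ad-hHIF2 samples were above all Ad-GFP samples for Sgpl1, a difference that was not tested. For Spns2 it lay between 2828 and 3087 bases in all samples.

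In the direct comparison of the HIFs, Spns1, the lysosomal relative of Spns2, measured 17.0, 15.4 and 14.1 CPM in Ad-GFP, 16.9, 18.3 and 15.4 CPM in Ad-hHIF2 and 11.8, 9.81 and 12.3 CPM in Ad-hHIF1. It was higher in Ad-hHIF2 than in Ad-hHIF1 by 0.57 on the log2 scale (SE 0.11, adjusted p = 0.00437, edgeR), and every Ad-hHIF1 sample was below the other 6. It did not pass on log2(TPM + 1) (adjusted p = 0.434, limma) or log2(TPM + 0.1) (adjusted p = 0.379, limma), and its difference between Ad-hHIF1 and Ad-GFP did not pass (adjusted p = 0.49, edgeR).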
